A study of Mus musculus with 4 samples.

Results

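The genes examined here are those of cholesterol synthesis, efflux and transport in mouse brown adipocytes, 33 genes listed for their known roles. Of these, 29 carry a probe set whose annotation names that gene alone, out of 17097 genes tested in all. The platform annotation used names no probe set for Acat2, Pmvk, Soat1 and Abca1, which were not analysed here. The members fall into 17 measured genes of sterol synthesis and 12 measured genes of sterol handling, which move, store, export or oxidise cholesterol. The study compared brown adipocytes expressing a scrambled control short hairpin RNA (Scramble, 2 arrays) with brown adipocytes expressing a hairpin against Blnc1, brown fat lncRNA 1 (shBlnc1, 2 arrays). Both groups were differentiated for 6 days, and both carry a hairpin, so no array shows cells without one. The arrays are labelled as biological replicates, and precision is limited by having only 2 per group. The same annotation lists no probe set for Blnc1 itself, so how far its level was reduced was not analysed here. The labels do not name the strain, the age of the animals or whether the cells are a clone.

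Cholesterol is built from acetyl-CoA through mevalonate and the isoprenoid diphosphates to squalene, which is closed into lanosterol and then trimmed and reduced to cholesterol. The enzymes of this route are classically controlled together by the transcription factor SREBP2, which is released from the endoplasmic reticulum when membrane sterol is low and which acts with the CCAAT-binding factor NF-Y. Surplus cholesterol is esterified, exported through ABC transporters or turned into oxysterols, and the export genes are classic targets of the oxysterol receptors LXR. Fat cells hold a large pool of free cholesterol in their lipid droplets and membranes.

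The promoter sequence of the synthesis genes is shown first, because these genes share a short motif irrespective of how they moved. RefSeq windows on GRCm38.p6, from 250 bases before to 50 after a gene's start, were found for 22 of the 29 members. No window was found for Sqle, Fdps, Fdft1, Stard4, Abcg1, Npc1 and Scarb1. Below are the 180 bases upstream of the start of 4 genes that were higher on the knockdown arrays (Idi1, Cyp51, Sc5d, Msmo1), of Ebp, a synthesis gene that did not pass the test, and of Osbp, a handling gene that was lower. Capitals mark CCAAT on either strand (ATTGG on the other strand) and the sterol regulatory element core TCACNCCA, and each sequence runs 5′ to 3′ on the gene's strand. Their positions are chr13:8885426-8885605 (plus strand) for Idi1, chr5:4104698-4104877 (minus) for Cyp51, chr9:42264301-42264480 (minus) for Sc5d, chr8:64733579-64733758 (minus) for Msmo1, chrX:8193513-8193692 (minus) for Ebp and chr19:11965664-11965843 (plus) for Osbp.
Idi1: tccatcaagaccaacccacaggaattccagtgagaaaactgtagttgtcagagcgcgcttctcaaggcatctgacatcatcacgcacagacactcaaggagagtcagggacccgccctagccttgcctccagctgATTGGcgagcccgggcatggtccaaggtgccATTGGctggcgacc
Cyp51: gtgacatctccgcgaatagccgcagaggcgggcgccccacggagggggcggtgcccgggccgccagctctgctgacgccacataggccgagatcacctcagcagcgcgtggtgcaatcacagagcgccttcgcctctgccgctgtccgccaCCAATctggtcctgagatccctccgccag
Sc5d: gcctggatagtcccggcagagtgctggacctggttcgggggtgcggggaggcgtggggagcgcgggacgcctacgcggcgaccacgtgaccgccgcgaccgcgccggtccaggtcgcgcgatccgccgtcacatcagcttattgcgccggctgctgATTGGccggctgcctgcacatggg
Msmo1: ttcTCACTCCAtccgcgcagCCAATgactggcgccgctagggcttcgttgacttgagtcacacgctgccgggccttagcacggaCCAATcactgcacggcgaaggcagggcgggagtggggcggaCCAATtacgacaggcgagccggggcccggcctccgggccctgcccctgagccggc
Ebp: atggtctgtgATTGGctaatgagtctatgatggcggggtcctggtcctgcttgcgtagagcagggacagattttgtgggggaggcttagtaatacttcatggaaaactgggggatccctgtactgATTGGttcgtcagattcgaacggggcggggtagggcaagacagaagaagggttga
Osbp: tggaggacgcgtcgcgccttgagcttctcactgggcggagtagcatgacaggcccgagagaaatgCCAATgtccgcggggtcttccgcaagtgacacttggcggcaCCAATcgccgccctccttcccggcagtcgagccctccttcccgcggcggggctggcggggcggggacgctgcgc

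CCAAT was present in a window of 14 of the 14 measured synthesis genes that have one, and in 42.3% of the 13605 tested genes with a window. Counted by window, it was in 14 of 16 synthesis windows, against 37.4% of all 32851 windows in the table. It was equally present in the 8 synthesis genes called higher and in the 6 that were not called, so in this set it did not separate them. Mvk held 5 copies, Hmgcs1 and Nsdhl held 4 each, and Cyp51, Sc5d, Lss and Tm7sf2 held 1 each. Of the handling genes with a window, 6 of 8 held CCAAT, 5 copies of it in Osbp. The core TCACNCCA was in windows of 2 synthesis genes, Hmgcs1 and Msmo1, and of 1 handling gene, Stard3, against 4.72% of the tested genes with a window. In Msmo1 it began at position -177, followed by CCAAT at -160, -96 and -55, where -1 is the last base before the start. The E-box CACGTG was in 3 of the 14 synthesis genes (Sc5d, Dhcr7, Hsd17b7) and in 0 of the 8 handling genes, against 10.2% of the tested genes with a window. The 3 motifs can overlap in principle, but 0 of the matches in these members did. A match is a stretch of letters and was not tested as a binding site. Only these exact letters were searched, so a promoter without a match can still hold a sterol regulatory element that differs from them.

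The synthesis genes were higher on the Blnc1 knockdown arrays as a group, and the handling genes went both ways. Of 17 synthesis genes, 10 passed an adjusted p of 0.05 by limma in the higher direction, 0 in the lower, and 7 did not pass. Over all 17097 genes, 18.5% were called, 11.4% higher and 7.18% lower. That balance depended on the scaling, with 1941 higher and 1228 lower genes as deposited, 1514 and 1564 after quantile normalization, and 2383 and 844 after median centring, but 10 synthesis genes were called higher and 0 lower under each. Without adjustment 12 synthesis genes had p under 0.05 in the higher direction and 0 in the lower. The median log2 fold change (knockdown minus scramble) was 0.70 for synthesis, -0.03 for handling and -0.04 for all genes tested. In the same order these medians were 0.60, -0.16 and -0.03 after quantile normalization. After median centring they were 0.77, 0.03 and 0.03. Both knockdown arrays lay above both scramble arrays for 13 synthesis genes, which held for 28.3% of all genes, and below them for 1 synthesis gene, against 34.3%. The members and their grouping were chosen with earlier results of these data known, so these counts are a description and not independent support. An array cannot tell a change in RNA per cell from a change in the share of cells that express a gene.

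**Figure D1:**
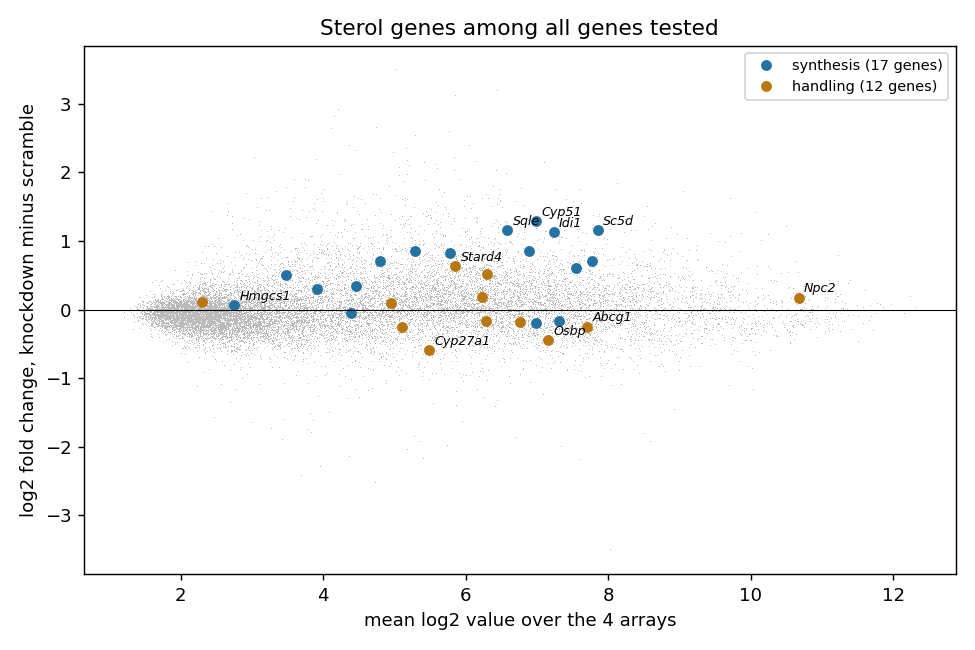
Each grey dot is 1 of 17097 genes, with its mean log2 value over the 4 arrays on the x axis and its log2 fold change (knockdown minus scramble) on the y axis; coloured points are the 17 synthesis and 12 handling genes. Most synthesis genes sit above 0, with Cyp51 the highest member at 1.29, while handling genes lie on both sides of 0, from -0.59 (Cyp27a1) to 0.63 (Stard4).

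Control measures of the RNA and marker genes of other cells also differed between the groups. Control probe sets at both ends of the Actb transcript gave a 3′/5′ log2 ratio of 0.99 and 1.15 in scramble and 1.77 and 1.88 in knockdown, and such a ratio is higher where RNA is more broken. The same ratio for Gapdh was 0.09 and 0.04 in scramble and 0.34 and 0.40 in knockdown. A control for the middle of 18S ribosomal RNA read 5.13 and 4.43 in scramble and 7.01 and 6.64 in knockdown replicates 2 and 1. The 18S control at the 3′ end overlapped between the groups (7.21 and 6.38 against 6.92 and 7.47). Background was set at the maximum reached on any array by the control probes that match no mouse sequence, leaving out those of 25 G or C bases. The defining brown fat genes were lower in knockdown: 5 of 5 markers (Ucp1, Cidea, Cox8b, Cox7a1, Dio2) fell, with a mean log2 value of 7.63 and 7.66 in scramble and 6.35 and 6.43 in knockdown. Of these, 4 were above background on all arrays, while Dio2 read 2.56 and 2.34 in knockdown, at about background. The 4 measured general fat cell markers (Adipoq, Fabp4, Lpl, Pparg) had means of 11.36 to 11.39 on all 4 arrays, and none was called by limma (0 with an unadjusted p under 0.05). Adipoq, Fabp4 and Lpl lay near the top of the scale, whose highest value was 12.36, which limits what their similar levels show. Pparg, the dimmest of the 4, had a log2 fold change of -0.17, and the other 3 had 0.02 to 0.07. All 5 preadipocyte markers were called higher, with means of 3.70 and 3.84 against 4.59 and 4.64, but Dlk1 and Thy1 lost their calls after quantile normalization, which left 3 of 5. Of 8 hepatocyte markers, 7 were called lower, with means of 4.77 and 4.68 against 3.33 and 2.80, but only 3 of the 8 were above background on all arrays. Of 8 macrophage markers, 4 had both group means at or below a background log2 value of 2.55, and 1, Adgre1, was called higher. Of 5 endothelial markers, 2 were at background in both groups and 1, Tek, was called higher. Leaving out 1 array ended the calls of Cox7a1, Dlk1, Thy1, Adgre1, Tek and Alb, with adjusted p of at most 0.205. The part of these differences in the results on sterol genes was not tested.

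Cyp51, lanosterol demethylase (Entrez Gene 13121), had the largest rise of any member by the brightest probe set. It read 6.36 and 6.32 in scramble and 7.70 and 7.56 in knockdown, a log2 fold change of 1.29 ± 0.11 (SE), or 2.44-fold (adjusted p = 0.000851). With a gene's probe sets averaged the log2 fold change of Cyp51 was 0.93, below Sqle at 1.16 and Idi1 at 1.01. By the brightest probe set, the gap between the groups was many times that between replicates. Sqle, squalene epoxidase (Entrez Gene 20775), a rate-limiting step of the late pathway, read 6.01 on both scramble arrays and 7.13 and 7.19 in knockdown, 2.23-fold higher (adjusted p = 0.000935). Sc5d, the sterol C5 desaturase, read 7.28 and 7.27 against 8.41 and 8.46, 2.23-fold higher (adjusted p = 0.00092). Idi1, which isomerises isopentenyl diphosphate, read 6.68 and 6.66 against 7.77 and 7.83, 2.19-fold higher (adjusted p = 0.000979). By that rule these 4 were the members with more than a 2-fold rise, and in each the replicates lay far closer together than the groups.

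In the steps before squalene, 3 of 6 measured genes were called higher. Besides Idi1 these were Fdps, which makes farnesyl diphosphate, at 7.55 and 7.27 against 8.13 and 8.12 (1.64-fold, adjusted p = 0.0099), and Mvd, mevalonate diphosphate decarboxylase, at 3.23 and 3.22 against 3.59 and 3.86 (1.42-fold, adjusted p = 0.0323). Both calls were lost in some fits with 1 array left out. Here and elsewhere, such a fit has 1 array in a group and less power. A call lost there does not by itself show a changed estimate. Fdps lost its call without either knockdown array. Its log2 fold change was 0.70 without replicate 1 and 0.72 without replicate 2, against 0.71. Mvd lost its call without either scramble array or without knockdown replicate 2. Its log2 fold change was 0.51 and 0.49 without scramble replicates 1 and 2, against 0.50. It was 0.64 and 0.36 without knockdown replicates 1 and 2. Mvd had an adjusted p of 0.0681 when probe sets shared by several transcripts were left out. Mvk, mevalonate kinase, read 3.82 and 3.72 against 4.11 and 4.03, without overlap but with an adjusted p of 0.094 (0.036 with its probe sets averaged). Ggps1, whose product geranylgeranyl diphosphate leaves the sterol route for protein prenylation, had a log2 fold change of 0.35 with a 95% interval of -0.02 to 0.72 (adjusted p = 0.167; 0.0231 without scramble replicate 1). For Hmgcs1, which makes HMG-CoA, the only named probe set read 2.71 ± 0.33 (SD, n = 2) in scramble and 2.78 ± 0.31 in knockdown, close to background. Its interval, -0.41 to 0.53, leaves the cytosolic HMG-CoA synthase step unresolved here.

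From squalene formation on, 7 of 11 genes were called higher. Besides Cyp51, Sqle and Sc5d, Msmo1, which removes the C4 methyl groups, read 6.46 on both scramble arrays and 7.28 and 7.36 in knockdown (1.81-fold, adjusted p = 0.00252). Lss, which closes the ring to lanosterol, read 4.74 and 4.98 against 5.71 on both knockdown arrays (1.80-fold, adjusted p = 0.00444). Dhcr7, the reductase that turns 7-dehydrocholesterol into cholesterol, read 5.44 and 5.29 against 6.20 and 6.17 (1.76-fold, adjusted p = 0.0035). In these 3 genes every knockdown array lay well above both scramble arrays. Nsdhl, a partner of Msmo1 in C4 demethylation, read 7.36 and 7.14 against 7.94 and 7.78 (1.52-fold, adjusted p = 0.0171; 0.109 and 0.0582 without knockdown replicates 1 and 2). Tm7sf2, a C14 sterol reductase, had a similar fold change, 1.63, but the scramble arrays read 4.84 and 4.03 and the adjusted p was 0.0865. That gap of 0.81 log2 units was the widest between replicates of any synthesis gene, and without scramble replicate 1 the log2 fold change of Tm7sf2 was 1.11 with an adjusted p of 0.00258. It was also called when the limma prior followed the mean level (adjusted p = 0.0265).

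The synthesis genes did not move as 1 block. Fdft1, squalene synthase, which commits farnesyl diphosphate to sterols and lies between the raised Fdps and Sqle, read 7.16 and 6.998 in scramble and 6.88 and 6.89 in knockdown. Its log2 fold change was -0.20 (adjusted p = 0.238), with an interval of -0.45 to 0.05 that lies below the estimate of each of the 10 called genes. Ebp, the sterol isomerase, read 7.58 and 7.20 against 7.25 and 7.21, so that its groups overlapped, at -0.16 (interval -0.50 to 0.18). Hsd17b7, the 3-ketosteroid reductase of C4 demethylation, read 4.46 and 4.37 against 4.38 and 4.35, at -0.05 (interval -0.29 to 0.19). A slightly dimmer probe set of Hsd17b7 read 4.42 and 4.05 against 4.58 and 4.43, at 0.27 (interval -0.07 to 0.61). The direction of Hsd17b7 is thus not settled. Fdft1 and Ebp are represented by 1 probe set each, well above background. Differences between members were not tested as such.

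**Figure D2:**
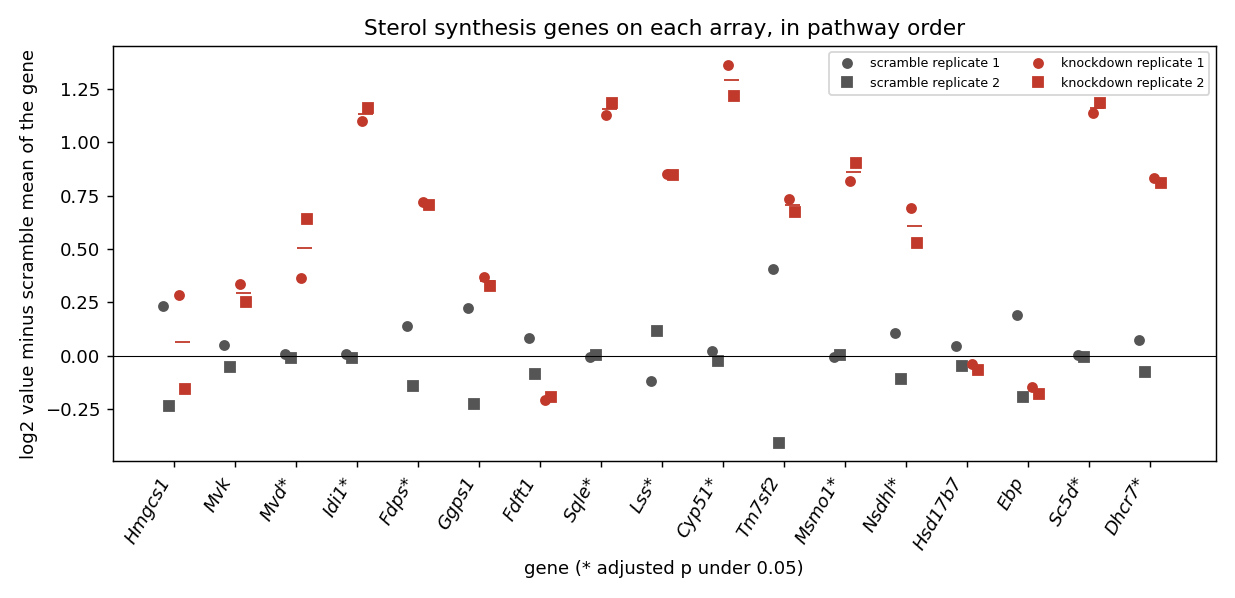
For each of 17 synthesis genes in pathway order, points give the log2 value on each array minus the scramble mean of that gene (grey scramble, red knockdown; circles replicate 1, squares replicate 2), a red line the knockdown mean, and a star an adjusted p under 0.05. The 10 starred genes rise by 0.50 to 1.29, while Fdft1, Hsd17b7 and Ebp lie below 0 and the scramble replicates of Tm7sf2 stand 0.81 apart.

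Of the 12 handling genes, 2 were called higher, 2 lower and 8 were not called. Over all genes, 11.4% were called higher and 7.18% lower, and counts this small are not read as a result about the group. For efflux, Abcg1 was the only named transporter. It exports cholesterol to lipoprotein particles, and it read 8.05 and 7.60 in scramble and 7.64 and 7.52 in knockdown. Its groups overlapped, at a log2 fold change of -0.25 with an interval of -0.62 to 0.13 (adjusted p = 0.319). Without scramble replicate 2 it was -0.47 with an adjusted p of 0.0474, and its dimmer probe set, at 4.19 and 4.36 against 4.10 and 3.63, gave -0.41. No rise of Abcg1 by more than 0.13 log2 units lies within its interval. Set against synthesis, the mean log2 fold change of the 17 synthesis genes exceeded that of Abcg1 by 0.84. Relative to the scramble mean, that synthesis minus efflux difference was -0.14 and 0.14 for scramble and 0.79 and 0.89 for knockdown, so the groups stood apart. With all 12 handling genes in place of Abcg1, a comparison chosen after seeing the data, the difference was 0.61. As the members were chosen with results known, no test is given for it.

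Among carriers, Stard4, which moves free cholesterol between membranes and is itself a known sterol-regulated gene, was the handling gene with the largest rise. It read 5.62 and 5.46 against 6.26 and 6.09, 1.55-fold higher (adjusted p = 0.012; 0.0866 without knockdown replicate 1). Its other 2 probe sets also had both knockdown arrays above both scramble arrays, at 0.50 and 1.18. Osbp, an oxysterol-binding protein that exchanges cholesterol between endoplasmic reticulum and Golgi, moved the other way, with 7.41 and 7.34 against 6.997 and 6.86. It was 1.37-fold lower (adjusted p = 0.0288), a call lost without scramble replicate 1 (0.0714) and without knockdown replicates 1 (0.0894) and 2 (0.193). Stard3, a late endosomal sterol carrier, read 4.87 and 4.94 against 5.03 and 4.97 and was not called. Its log2 fold change of 0.10 became -0.02 after quantile normalization.

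Of the receptors, Lrp1, a large endocytic receptor that takes up apolipoprotein E particles, was called higher. It read 6.11 and 5.97 against 6.54 and 6.56 (1.43-fold, adjusted p = 0.0182), with adjusted p of 0.0951 and 0.114 without knockdown replicates 1 and 2 and 0.0507 after quantile normalization. Scarb1, the HDL receptor that exchanges cholesterol in both directions, read 6.05 and 6.23 against 6.49 and 6.16 and overlapped between groups. Vldlr, which binds triglyceride-rich lipoproteins, has 5 probe sets that ran from -0.27 to 0.66. The brightest read 6.35 and 6.38 against 6.16 and 6.25 and was not called.

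The 3 lysosomal genes gave no call by the brightest probe set in limma, and 0 had an unadjusted p under 0.05. Npc2 was called higher when the limma prior followed the mean level (adjusted p = 0.00583) and when its probe sets were averaged (0.0334). Npc2, the soluble sterol carrier of the lysosome, read 10.62 and 10.56 against 10.76 on both knockdown arrays, a log2 fold change of 0.17 near the top of the scale. A dimmer probe set of Npc2 read 5.29 and 5.39 against 5.92 and 6.06, at 0.65 (adjusted p = 0.00907 over the 28898 probe sets with 1 symbol). Npc1, its membrane partner, read 4.97 and 5.49 against 5.16 and 4.79 and overlapped. Lipa, the lysosomal acid lipase that frees cholesterol from esters, depended on the probe set more than any other member. Its brightest probe set, whose suffix marks probes shared by several transcripts, read 6.83 and 6.89 against 6.72 and 6.62, at -0.19 (adjusted p = 0.246). Another of its 3 probe sets read 4.57 and 4.63 against 5.82 and 5.86, at 1.24 (adjusted p = 0.000826 over the probe sets), and the third gave 0.30. The direction of Lipa is therefore not settled by these arrays. The 3′ to 5′ ratio of Actb was also higher on the knockdown arrays, by the values given above, and its part in this disagreement was not tested.

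**Figure D3:**
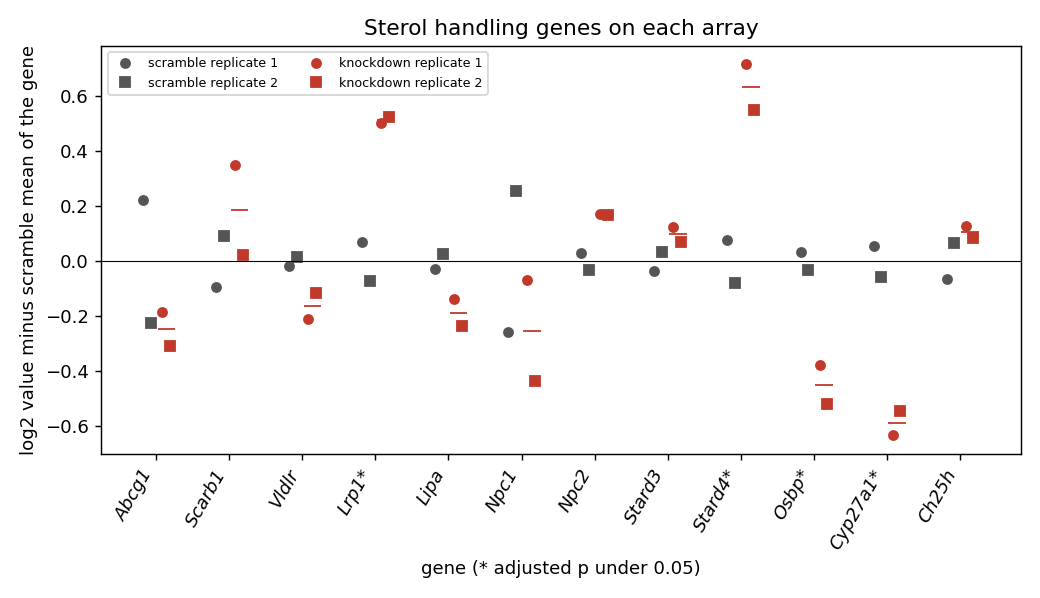
For each of 12 handling genes, points give the log2 value on each array minus the scramble mean of that gene, with colours, shapes, lines and stars as for the synthesis genes. Stard4 and Lrp1 rise, Osbp and Cyp27a1 fall, and Abcg1, Scarb1 and Npc1 overlap between the groups.

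Cyp27a1, the mitochondrial sterol 27-hydroxylase that makes 27-hydroxycholesterol (Entrez Gene 104086), had the largest fall of any member. It read 5.83 and 5.72 in scramble and 5.14 and 5.23 in knockdown, 1.504-fold lower (adjusted p = 0.0112), a call lost without knockdown replicate 1 (0.0833) or 2 (0.06). Cyp27a1 is also strongly expressed in liver, and 7 of 8 hepatocyte markers were called lower on the same arrays, by up to 2.52 log2 units for Alb. Alb read 6.28 and 5.70 in scramble and 4.43 and 2.505 in knockdown, with an interval of -3.82 to -1.22. Its value on knockdown replicate 2 was below background, as were those of Ttr, Serpina1c and Cyp2e1, so the sizes of these falls are uncertain. The part of liver transcripts in the fall of Cyp27a1 was not tested. Ch25h, which makes 25-hydroxycholesterol, was below background on all 4 arrays, at 2.17 to 2.37.

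Across the members' 53 probe sets, 24 are dimmer ones of the 14 genes that have several, and 21 of these were above background on every array. In synthesis, 8 of 9 such probe sets gave a positive log2 fold change. Among the 9, those of Hsd17b7 (0.27, brightest -0.05) and 1 of Ggps1 (-0.04, brightest 0.35) opposed the sign of the brightest. The second probe sets of Idi1 and Sc5d gave 0.88 and 1.15, and that of Cyp51 gave 1.08, close to their brightest. The third Cyp51 probe set, above background on 3 of 4 arrays, gave 0.43. A further Sc5d probe set, at 2.75 to 2.86 on all arrays and so barely above background, gave 0.08. In handling, 4 of 12 opposed the sign of the brightest, 2 each in Lipa and Vldlr.

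**Figure D4:**
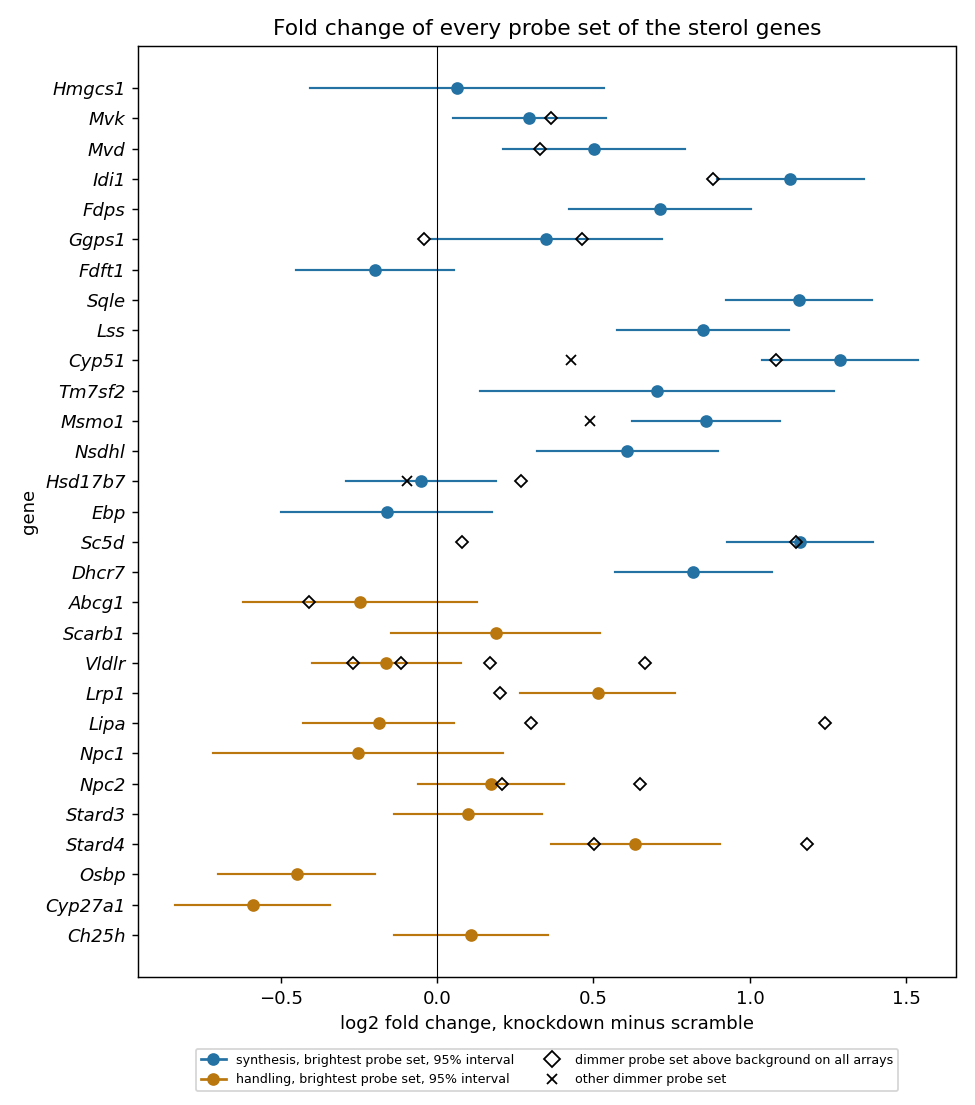
Log2 fold change (x axis, knockdown minus scramble) of every probe set of the 29 genes: filled points are the brightest probe set with its 95% interval (blue synthesis, orange handling), open diamonds dimmer probe sets above background on all arrays, and crosses other dimmer ones. Probe sets of synthesis genes mostly lie together to the right of 0, while those of Lipa spread from -0.19 to 1.24 and those of Vldlr from -0.27 to 0.66.

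Other genes of or near the pathway were taken from lists that were likewise written with earlier results known. Of 54 listed, 43 were measured, of which 7 were called higher and 4 lower, with a median log2 fold change of 0.03. Over all genes, 11.4% were called higher and 7.18% lower, and the counts of each list below are to be read beside these shares. Of the 2 measured genes listed under other synthesis, Aacs was called higher (6.75 and 6.78 against 7.58 and 7.44, adjusted p = 0.00472). Aacs makes acetoacetyl-CoA for sterols and fatty acids. Acat1 was not called (0.25, adjusted p = 0.127), and its place on this list does not make it an enzyme of the cytosolic sterol route. Of 6 measured genes of SREBP and LXR control, 2 were called higher. They were Insig1, a feedback inhibitor of SREBP that is itself an SREBP target (7.99 and 7.94 against 8.74 and 8.78, adjusted p = 0.00307), and Mylip, a ubiquitin ligase gene that is a classic LXR target (6.12 and 6.10 against 6.87 and 6.79, adjusted p = 0.00472). Srebf2, which encodes SREBP2, was not called (5.29 and 5.05 against 5.15 and 4.88), and neither was Nr1h3, which encodes LXR alpha (-0.05).

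Of 3 other oxysterol genes, 2 were called higher. Cyp7b1, the oxysterol 7-alpha-hydroxylase that acts on 25- and 27-hydroxycholesterol, read 3.40 and 3.07 in scramble and 5.16 and 5.23 in knockdown, 3.89-fold higher (adjusted p = 0.000427). Averaging its 3 probe sets lowered the log2 fold change from 1.96 to 1.202. Cyp39a1, another oxysterol hydroxylase, was 1.503-fold higher (adjusted p = 0.0146; 0.103 without knockdown replicate 1). Cyp7b1 thus rose on the arrays on which Cyp27a1, the enzyme that makes one of its substrates, fell.

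Of 24 other transport genes, 2 were called higher and 2 lower, near the shares over all genes. The higher were Lrpap1, a chaperone of LRP1, and Gramd1b, a sterol carrier between plasma membrane and endoplasmic reticulum, and the lower Abca2 and Osbpl11. Their log2 fold changes were 0.56, 0.63, -0.42 and -0.40, and each of these 4 calls was lost without knockdown replicate 1 and without replicate 2, with adjusted p of at most 0.213. Those of Abca2, Osbpl11 and Gramd1b were also lost without scramble replicate 1, and that of Abca2 without scramble replicate 2. Without leaving out an array, the call of Gramd1b was lost after quantile normalization and with probe sets averaged, that of Osbpl11 after median centring and without probe sets shared by several transcripts, and that of Abca2 when the limma prior followed the mean level. Apoe, the apolipoprotein that fat cells secrete, overlapped between groups (9.01 and 8.93 against 9.19 and 8.77). Of 8 other isoprenoid genes, 0 were called higher by limma, with 2 at an unadjusted p under 0.05, and 2 were called lower, the prenyltransferase subunits Fntb and Rabggta (-0.55 and -0.47). Both of those calls were lost without knockdown replicate 1 and without replicate 2, and that of Rabggta without scramble replicate 1, with adjusted p of at most 0.167.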

How the data were processed

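The authors deposited a log2 value for each probe set on each array, and these were used as given. Per the labels' protocols, 250 ng of Trizol RNA was labelled by 3′ in vitro transcription. Per the submitters' processing notes, RMA, affy and limma were used, without role or version. How the values were normalized is not stated in the sources used. Of 45141 probe sets, 104 controls were set aside and 28898 carry exactly 1 symbol. A gene was its brightest such probe set by the mean of the 4 arrays. In R 4.3.3, limma 3.58.1 (lmFit, eBayes) was fitted on the other 45037 probe sets with a single term for the group. Tests were two-sided and p-values were adjusted by Benjamini-Hochberg over 17097 genes. The fit was tested on simulated data. Residual degrees of freedom were 2, the prior ones 4.93, and the median SE 0.11. Fold changes carry 95% intervals. All members are described by role, and up to 4 called genes of each other list are named. The members, lists and motifs were chosen with earlier results of these data known. Alternatives were other scalings, filters, probe set rules and priors, a replicate block, and each array left out. A fit with an array left out has 1 array in that group, so a call lost there can come from lower power alone. Same-numbered replicates were not treated as paired. Their deviations correlated at 0.03 across genes, which cannot show whether they share a preparation, and the labels do not say. Plots used matplotlib 3.10.9.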

Additional observations from a re-analysis of the deposited data

How the results depend on the processing

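Of the 10 synthesis genes called higher, 7 (Idi1, Sqle, Lss, Cyp51, Msmo1, Sc5d, Dhcr7) were called under all 12 alternatives run, and 14 of 17 synthesis genes kept their sign. The count of higher synthesis genes ran from 7 to 11 over arrays left out, with 0 lower each time. Calls over all genes ran from 1050 to 2841 with 1 array left out, against 3169. Handling genes called higher ran from 0 to 2 and lower from 0 to 3 with 1 array left out, against 2 each. Higher handling genes numbered 1 after quantile normalization, 4 when a gene's probe sets were averaged, and 3, with Npc2 added, when the prior followed the mean level, or with Lipa added, when multi-transcript probe sets were left out. The synthesis minus efflux difference ran from 0.70 to 0.98 with 1 array left out, and was 0.61 against all handling genes, an alternative added after seeing the data. With the replicate number as a block 11 synthesis genes were called higher, with Tm7sf2 added (adjusted p = 0.0359), and 3179 genes in all. It changed no other member's call. Signs reversed for genes not called by the brightest probe set on the values as deposited. Stard3 went to -0.021 (quantile), and Hsd17b7 to 0.013 (median centring) and 0.040 (mean of probe sets). Vldlr went to 0.057 (mean of probe sets). Lipa went to 0.45 (mean of probe sets) and 1.24 (no multi-transcript probe sets). In both of these settings limma called Lipa higher (adjusted p = 0.0173 and 0.000858). With 1 array left out, Ebp ran from -0.35 to 0.031 and reversed without scramble replicate 1. Npc1 ran from -0.51 to 0.0050 and reversed without scramble replicate 2. Hmgcs1 ran from -0.17 to 0.30 and reversed without scramble replicate 2 and without knockdown replicate 1. The cause of these reversals was not tested. Values near background, as for Hmgcs1 and Ch25h, limit what can be read.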
